A study of Mus musculus with 2 samples.

Results

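The genes described here encode the machinery that docks synaptic vesicles and fuses them with the cell membrane: synaptotagmins, syntaxins and their binding proteins, VAMPs, the SNAP-25 family, complexins, synapsins, synaptophysin, SV2 proteins, RIM and Unc13 proteins, Bassoon and Piccolo. They were chosen by gene symbol from the array's probe annotation, using only probe sets that name 1 gene. This gave 69 genes, measured by 77 probe sets, of 19503 genes measured in all. The probe set for Vamp2 also names Ubr3 and was not used here.

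The RNA came from pooled cerebella of Tg(Pcp2-L10a-Egfp) mice at postnatal day 7. In these mice the promoter of Pcp2, a gene of Purkinje cells, drives a green fluorescent ribosomal protein, L10a. Antibody-coated beads captured the tagged ribosomes with their mRNA, which is the method called translating ribosome affinity purification (TRAP). The TRAP sample is the RNA eluted from the beads, and the unbound sample is the RNA the beads left in the supernatant. Both samples carry the same transgene and age, and each was hybridised to 1 Affymetrix whole-transcript array. How many animals were pooled, and whether both samples came from 1 pool, is not given in the sources used here.

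Vesicle release rests on SNARE proteins. A VAMP on the vesicle winds into a bundle with a syntaxin and a SNAP-25 protein on the target membrane, and the bundle pulls the membranes together. Unc13 proteins and some Stxbp proteins prepare it, complexins hold it ready, and synaptotagmins trigger it when calcium enters. RIM, Bassoon and Piccolo organise the release site. Other syntaxins and VAMPs do the same work at the Golgi, endosomes and lysosomes of every cell. Purkinje cells are inhibitory neurons whose axons release GABA, whereas the granule neurons born around this age release glutamate.

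Each fraction was measured on 1 array, so no replicate exists, a single gene has no error, and nothing could be tested. Values are log2 expression values, and the difference is TRAP minus unbound on that scale. A gene was called when the difference was at least 1, which is 2-fold, and the higher of its values lay above a floor of 7.08, the median of both arrays' probe sets together. Probes differ in brightness, so a value is compared only with the same gene's value on the other array. Each fraction is a mixture of cells, so fewer cells of a type and less RNA per cell cannot be told apart.

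None of the 69 genes was called higher in TRAP, and 17 (24.6%) were called higher in unbound. Among all 19503 measured genes, 4.37% were called higher in TRAP and 10.0% higher in unbound. The families pass the floor more often than other genes: 58 of 69 had a value above it on at least 1 array, against 10524 of all 19503. By the call rule, the 17 called genes lie among these 58. Among the 10524 genes the shares called were 8.11% for TRAP and 18.6% for unbound. Shares and medians of the families are over all 69 genes, 11 of which did not pass the floor. They are therefore not like for like with those of the 10524. The median difference was -0.17 for the 69 genes, against 0.10 for all measured genes and -0.13 for those above the floor on at least 1 array. The differences ran from -2.26 for Snap23 to 1.77 for Cplx4, and 39 of the 69 (56.5%) lay within 0.5 of 0, against 62.0% of all measured genes and 43.8% of those above the floor. Besides these 39 and the 17 called, 13 genes had larger differences without being called.

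The arrays differ in their medians, 6.92 for TRAP and 7.25 for unbound, so the balance of calls depends on scaling. Subtracting the array medians gave 3 genes higher in TRAP and 13 in unbound, and both quantile normalization and removal of a lowess trend gave 2 in TRAP and 16 in unbound. Over all measured genes the calls were 853 higher in TRAP and 1955 in unbound as deposited, and 1692 in TRAP and 1244 in unbound with the medians subtracted. They were 1245 in TRAP and 1486 in unbound after quantile normalization, and 1199 in TRAP and 1507 in unbound after removal of the trend. The 13 genes called with the medians subtracted were called under all 4 scalings.

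**Figure D1:**
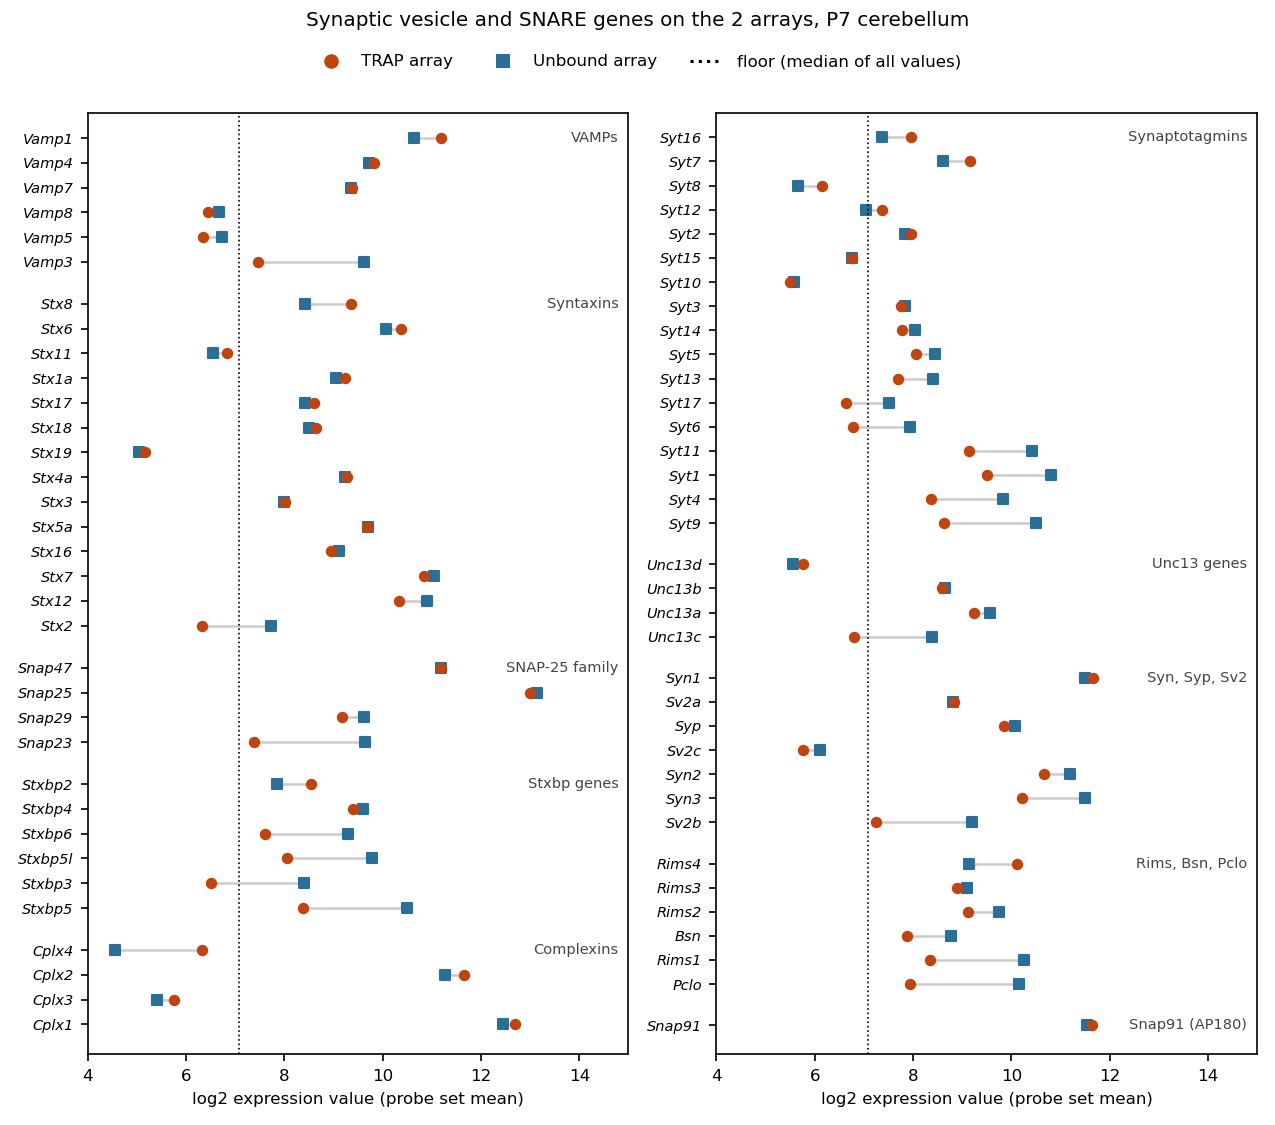
Log2 expression values of the 69 genes on the TRAP array (circles) and the unbound array (squares), 1 row per gene, grouped by role. The dotted line is the floor of 7.08. Complexins sit to the right on the TRAP array, while Snap23, Vamp3, Pclo and Stxbp5 show the widest gaps with the unbound value to the right.

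Among the vesicle SNAREs, Vamp1 and Vamp3 stood at opposite ends. Vamp1, a synaptobrevin of synaptic vesicles, read 11.19 in TRAP and 10.64 in unbound, a difference of 0.56 or 1.47-fold that stayed positive under all 4 scalings. Vamp3, also called cellubrevin and found on recycling endosomes of most cell types, read 7.46 in TRAP and 9.61 in unbound, 4.47-fold higher in unbound. Its TRAP value was only a little above the floor. Vamp4 of the trans-Golgi network and Vamp7 of late endosomes and lysosomes had nearly equal values, with differences of 0.10 and 0.01. Vamp5 and Vamp8 did not reach the floor on either array. Of the 6 VAMP genes, 1 was called.

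In the SNAP-25 family 1 of 4 genes was called. Snap25, the neuronal partner of syntaxin at the plasma membrane, read 12.99 in TRAP and 13.15 in unbound, a difference of -0.16 that turned to 0.17 with the array medians subtracted. Snap23, its counterpart in most other cells, read 7.39 in TRAP and 9.65 in unbound. This was 4.80-fold higher in unbound, and only 1.44% of measured genes had a lower difference. The TRAP value of Snap23 was only a little above the floor. Snap47, a family member of intracellular membranes, had 11.18 on both arrays, and Snap29, which takes part in the fusion of autophagosomes, differed by -0.45.

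Syntaxins varied little. Of 14 genes, 11 lay within 0.5 of 0, 12 passed the floor, and Stx2 was the 1 call. Stx1a, the neuronal syntaxin of the plasma membrane, read 9.23 in TRAP and 9.04 in unbound. Stx2, known as epimorphin, read 6.33 in TRAP and 7.72 in unbound, 2.62-fold higher in unbound with the TRAP value below the floor. Its value on the TRAP array has no known relation to background, so the fold is uncertain.

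The syntaxins of the Golgi and endosomes spread around 0. Stx8, a late endosomal SNARE, had the highest difference of the family, with 9.36 in TRAP and 8.41 in unbound. At 1.93-fold it fell just short of a call as deposited, and it was called higher in TRAP under each of the 3 other scalings, with differences of 1.14 to 1.28. Stx7, which acts in the same late endosomal complex, read 10.85 in TRAP and 11.04 in unbound, a difference of -0.19 that turned positive with the medians subtracted. Stx6 of the trans-Golgi network differed by 0.31, and Stx12 of recycling endosomes by -0.56. Stx16, Stx5a, Stx18 and Stx17, which serve the trans-Golgi network, the early Golgi, the endoplasmic reticulum and autophagosomes, differed by -0.17 to 0.19. Stx3 and Stx4a, syntaxins of the plasma membrane, differed by 0.03 and 0.05. Stx11, known from immune cells, and Stx19 did not reach the floor on either array.

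**Figure D2:**
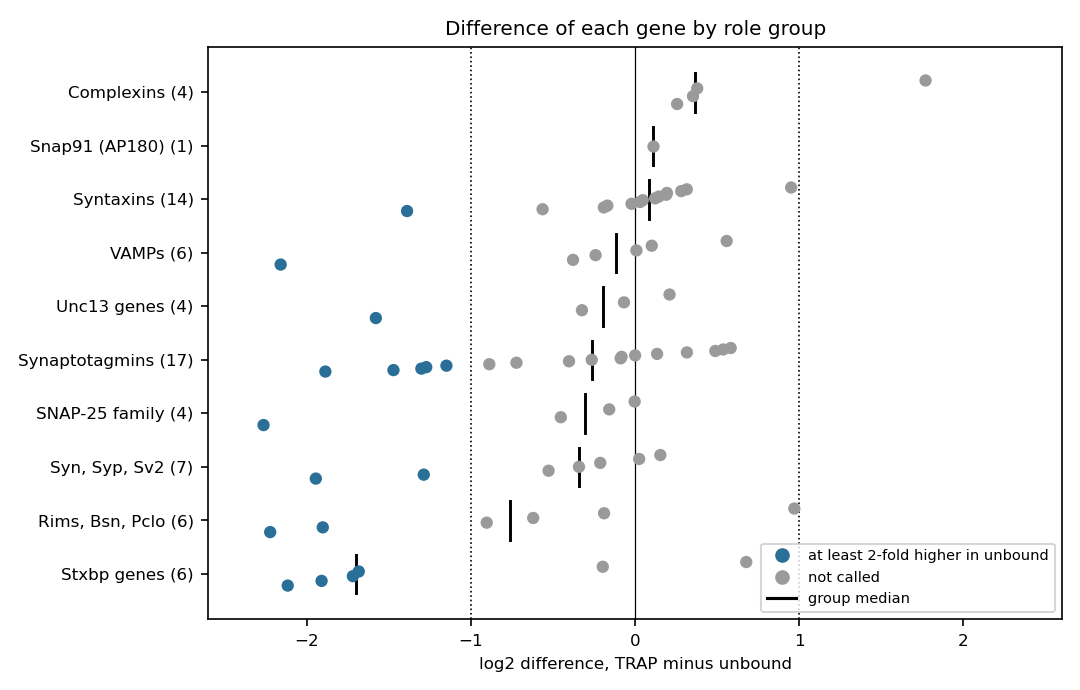
Log2 difference (TRAP minus unbound) of each gene, 1 row per role group with the number of genes in brackets. The black bars are group medians and the dotted lines mark 2-fold. The 4 complexins all lie to the right of 0, and 4 of the 6 Stxbp genes lie left of -1; the rightmost point is Cplx4, which was not called because neither value passed the floor.

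The syntaxin-binding proteins had the lowest median of the role groups, -1.70, and 4 of 6 (66.7%) were called higher in unbound. The shares were 10.0% of all measured genes and 18.6% of those above the floor on at least 1 array. Stxbp5, encoding tomosyn, which occupies syntaxin and SNAP-25 in place of a VAMP, read 8.38 in TRAP and 10.50 in unbound, 4.34-fold higher in unbound. Its relative Stxbp5l read 8.06 in TRAP and 9.78 in unbound, 3.29-fold higher in unbound. Stxbp6, encoding amisyn, another protein with a VAMP-like coil, read 7.61 in TRAP and 9.29 in unbound. These 3 genes, which all encode VAMP-like competitors for SNARE assembly, were each at least 3.21-fold higher in unbound and were called under all 4 scalings.

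Stxbp3 and Stxbp2, both of the Munc18 family, went apart. Stxbp3, encoding Munc18c, read 6.50 in TRAP and 8.41 in unbound, 3.76-fold higher in unbound, with the TRAP value below the floor. Stxbp2, encoding Munc18-2, read 8.53 in TRAP and 7.86 in unbound, 1.60-fold higher in TRAP and called only with the array medians subtracted, where it reached 1.01. Stxbp4, encoding the syntaxin 4 binding protein synip, differed by -0.20, with -0.27 and -0.12 for its 2 probe sets, and turned positive with the medians subtracted.

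Complexins were the role group of more than 1 gene in which every member was higher in TRAP, although none was called. Of all 19503 measured genes, 11239 were higher in TRAP, as were 4644 of the 10524 above the floor on at least 1 array. Cplx1 and Cplx2, the main complexins of brain synapses, read 12.69 and 11.65 in TRAP, against 12.44 and 11.28 in unbound. The differences of 0.26 and 0.38 were below 2-fold and stayed positive under all 4 scalings. The median of all measured genes was also positive under each scaling, from 0.05 to 0.43. Cplx4, known from the ribbon synapses of the retina, had the highest difference of all 69 genes, 6.33 in TRAP and 4.56 in unbound, and 99.3% of measured genes had a lower one. Both of its values lay below the floor, as did those of Cplx3, and no background level is known for them.

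The Unc13 genes prime vesicles for release. Unc13c, encoding Munc13-3, an isoform known from cerebellar granule cells, averaged 6.81 in TRAP and 8.39 in unbound over 7 probe sets, 2.99-fold higher in unbound. All 7 probe sets went the same way, with differences from -1.80 to -1.17, although the mean TRAP value lay below the floor. The probe set at -1.80 read 4.07 in TRAP and 5.87 in unbound, below the floor on both arrays. The others read 6.86 to 7.66 in TRAP and 8.06 to 9.44 in unbound. Probe sets of a gene share the 2 RNA samples, so they check the probes and not the samples. Unc13a, encoding the widespread isoform Munc13-1, read 9.25 in TRAP and 9.57 in unbound. Its 2 probe sets differed by -0.50 and -0.15, and the mean turned to 0.01 with the array medians subtracted. Unc13b, encoding Munc13-2, differed by -0.07, also with a sign that depended on scaling. Unc13d, known from immune cells, lay below the floor.

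**Figure D3:**
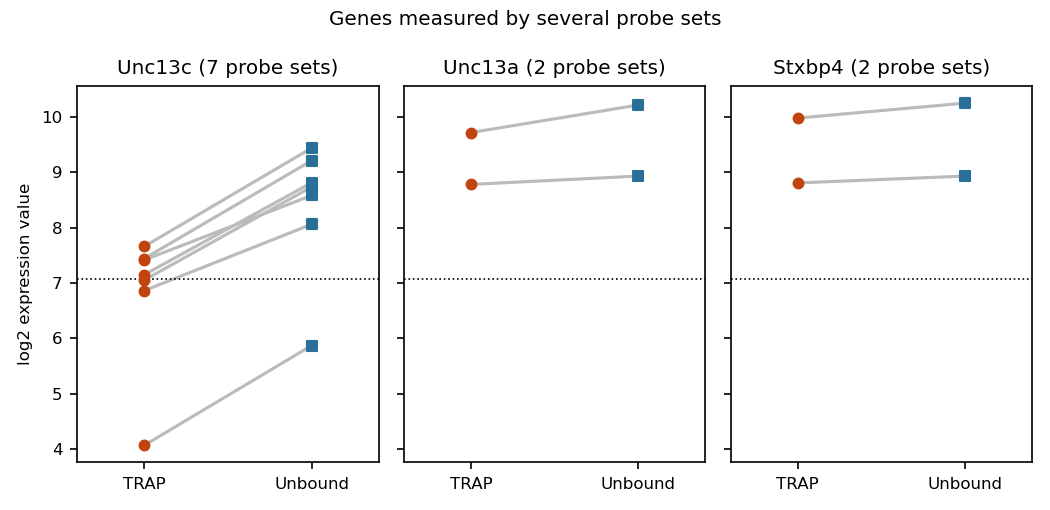
Log2 expression values of every probe set of the 3 genes measured by more than 1, with TRAP on the left and unbound on the right, lines joining the values of a probe set and the dotted line at the floor of 7.08. All 7 lines of Unc13c slope upward to unbound, with differences of -1.80 to -1.17, while those of Unc13a and Stxbp4 are flatter.

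The synaptotagmins formed the largest family, with 17 genes, of which 5 (29.4%) were called higher in unbound and none in TRAP. The shares called higher in unbound were 10.0% of all measured genes and 18.6% of those above the floor on at least 1 array. The 5 became 2 with the array medians subtracted and 4 under both other scalings. Syt1, the main calcium sensor of fast release in forebrain neurons, read 9.50 in TRAP and 10.80 in unbound, 2.47-fold higher in unbound. Syt9, a sensor related to it, read 8.62 in TRAP and 10.51 in unbound, 3.70-fold higher in unbound. Syt2, the third fast sensor, found in hindbrain neurons, read 7.96 in TRAP and 7.83 in unbound. The 3 fast sensors therefore did not all differ one way: 2 were higher in unbound, and Syt2 had a difference of 0.13.

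Syt7, a slower sensor with high calcium affinity, read 9.15 in TRAP and 8.61 in unbound, a difference of 0.54 that stayed positive under all scalings. Syt4 and Syt11, which lack a residue for calcium binding in their first C2 domain, were 2.77-fold and 2.42-fold higher in unbound. Syt4 read 8.36 in TRAP and 9.83 in unbound, and Syt11 read 9.14 in TRAP and 10.41 in unbound. Syt6 was 2.22-fold higher in unbound as deposited, with 6.78 in TRAP, below the floor, and 7.93 in unbound. It fell short of 2-fold under each of the 3 other scalings. Syt16 had the highest difference of the family, 0.58. Syt17 and Syt13, at -0.89 and -0.72, were higher in unbound under all 4 scalings without being called, Syt12 was higher in TRAP by 0.32, and Syt3, Syt5 and Syt14 differed by -0.40 to -0.09. Syt8, Syt10 and Syt15 did not reach the floor on either array. Of the 8 calcium-binding synaptotagmins 3 were called (37.5%), and of the 9 others 2 (22.2%). These class counts depended on scaling. With the array medians subtracted, 1 of each class was called, and under both other scalings 2 of each. Syt15 had the same value, 6.76, on both arrays, as did 112 of 22097 probe sets in all.

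Vesicle surface and membrane proteins included both equal and unequal isoforms. Syn1, encoding synapsin I, which tethers vesicles to each other, read 11.65 in TRAP and 11.50 in unbound. Syn2 read 10.67 in TRAP and 11.19 in unbound. Syn3, the synapsin of developing neurons, read 10.21 in TRAP and 11.50 in unbound, 2.44-fold higher in unbound. The synapsins were thus ordered from Syn1 at 0.15 through Syn2 at -0.53 to Syn3 at -1.29, an order that each other scaling kept.

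Syp, encoding the vesicle protein synaptophysin, read 9.86 in TRAP and 10.07 in unbound, a difference of -0.21 that turned positive with the medians subtracted. Sv2a, the widespread SV2 isoform, read 8.83 in TRAP and 8.81 in unbound. Sv2b read 7.25 in TRAP, only a little above the floor, and 9.20 in unbound, 3.85-fold higher in unbound. Sv2c was below the floor on both arrays. Snap91, encoding AP180, a clathrin adaptor for vesicle retrieval and not a SNARE, read 11.65 in TRAP and 11.53 in unbound.

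At the active zone, Pclo and Rims1 were called higher in unbound, and the other 4 genes were not called. Pclo, encoding Piccolo, read 7.94 in TRAP and 10.16 in unbound, 4.67-fold higher in unbound. Rims1, encoding the RIM1 scaffold, read 8.35 in TRAP and 10.25 in unbound, 3.74-fold higher in unbound. Bsn, encoding Bassoon, read 7.87 in TRAP and 8.78 in unbound, and at 1.87-fold higher in unbound it was not called. Rims2, the second long RIM, differed by -0.62.

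Rims4, which encodes a short RIM protein holding only the last C2 domain, read 10.11 in TRAP and 9.14 in unbound. Its 1.96-fold difference fell just short of a call as deposited, and it was called higher in TRAP under each of the 3 other scalings, with differences of 1.04 to 1.30. Rims3, the other short RIM, read 8.90 in TRAP and 9.09 in unbound, and its sign depended on scaling. Of the values near the threshold, Rims4 and Stx8 lay just outside it on the TRAP side, Syt6 just inside it on the unbound side at -1.15 and Bsn just outside at -0.90.

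A division by function, between 27 genes of presynaptic release and 23 SNARE and Munc18 genes of the general plasma membrane and endomembranes, gave similar medians. The release genes had a median of -0.19 with 7 called higher in unbound (25.9%), and the general genes had a median of -0.003 with 4 called (17.4%). The shares called higher in unbound were 10.0% of all measured genes and 18.6% of those above the floor on at least 1 array. The division left out 14 other synaptotagmins, with a median of -0.18 and 3 called higher in unbound. It also left out 5 genes, Stxbp4, Stxbp5, Stxbp5l, Stxbp6 and Unc13d, with a median of -1.68 and 3 called higher in unbound. Differences ran from -2.22 to 1.77 among the release genes and from -2.26 to 0.95 among the general genes. The release genes and the general genes thus both held genes near 0 and genes below -1.

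Partners of the vesicle cycle outside these families were described from a list of 57 measured genes. Their median difference was -0.01, with 2 called higher in TRAP and 12 (21.1%) in unbound. Among all measured genes the shares called were 4.37% for TRAP and 10.0% for unbound. Of the 57 partners, 54 passed the floor, and among all genes that passed it the shares were 8.11% for TRAP and 18.6% for unbound. With the array medians subtracted 6 were called higher in TRAP and 8 in unbound, and under both other scalings 5 in TRAP and 11 in unbound. Doc2b, encoding a calcium sensor of release with C2 domains like those of synaptotagmins, read 11.88 in TRAP and 9.53 in unbound, 5.10-fold higher in TRAP. Slc32a1, the vesicular GABA transporter of inhibitory neurons, read 9.70 in TRAP and 8.54 in unbound. Of the vesicular glutamate transporters, Slc17a6 and Slc17a7 were called higher in unbound, with 6.73 and 7.51 in TRAP, against 9.55 and 9.67 in unbound. Slc17a8, the third of them, read 6.25 in TRAP and 5.75 in unbound, both below the floor. The TRAP value of Slc17a6 lay below the floor as well.

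Other partners called higher in unbound were Cadps2, a priming factor for dense-core vesicles (6.25-fold), the dynamin gene Dnm2 (3.86-fold), the endophilin gene Sh3gl3 (3.6-fold, with a TRAP value of 6.65 below the floor), the active zone gene Erc1 (3.51-fold) and Rph3a, a Rab3 effector (2.84-fold). Amph, Scamp1, Itsn1, Sncg and Napb were 2.01-fold to 2.59-fold higher in unbound. Relatives of several of these were not called and lay on both sides of 0. Cadps, Dnm1, Dnm3, Sh3gl2 and Erc2 had differences of 0.17 to 0.57. Sh3gl1, Bin1, Napa and Sncb had differences of 0.02 to 0.85. Scamp2, Napg, Itsn2 and Scamp5 had differences of -0.73 to -0.15. Nsf, the ATPase that takes SNARE bundles apart, read 10.81 in TRAP and 11.03 in unbound, a difference of -0.22 that turned positive with the medians subtracted.

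Markers of cell types differed between the fractions as well. Pcp2 itself read 12.98 in TRAP and 11.65 in unbound, and Rpl10a, which encodes the tagged protein, read 12.67 in TRAP and 12.13 in unbound. The 7 measured Purkinje markers were higher in TRAP, 5 of them called, with a median of 1.34. All 9 markers of postmitotic granule neurons and 5 of 7 of granule progenitors were called higher in unbound, with medians of -2.15 and -1.99. So were 6 of 9 markers of astrocytes and Bergmann glia (median -2.0), 6 of 7 of the oligodendrocyte lineage (-2.16) and 3 of 6 of inhibitory interneurons (-1.10). Of the microglial, vascular and choroid plexus markers, 1 of 5, 2 of 5 and 1 of 3 were called higher in unbound.

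Granule neuron markers ranged from 7.11 to 11.84 in TRAP, against 9.67 to 12.91 in unbound. The lowest TRAP value was only a little above the floor. Without detection calls, these values do not show which of the markers were present in TRAP. Astrocyte and Bergmann glia markers ranged from 5.26 to 12.97 in TRAP and from 8.54 to 13.25 in unbound. The 12.97 was the value of Aldoc, which, with Hopx, was higher in TRAP. Whether Aldoc and Hopx mark only glia in these samples was not tested. The granule neuron markers and 7 of the 9 astrocyte and Bergmann glia markers differed in the same direction as the vesicle and SNARE genes higher in unbound. So did every measured marker of granule progenitors, the oligodendrocyte lineage, microglia and choroid plexus. The same held for 5 of 6 inhibitory interneuron markers and 4 of 5 vascular markers. The part of these cell types in those differences was not tested.

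**Figure D4:**
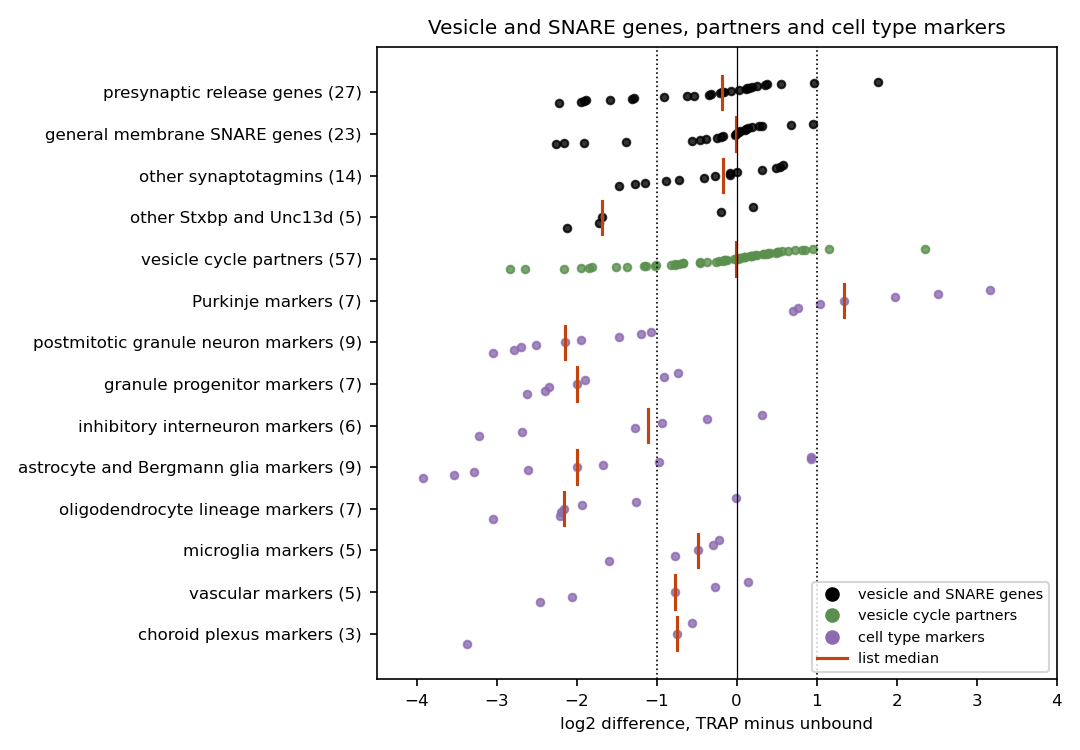
Log2 difference (TRAP minus unbound) of each gene for the vesicle and SNARE genes in 4 classes, the 57 vesicle cycle partners and 9 lists of cell type markers, with numbers of genes in brackets, red bars for list medians and dotted lines at 2-fold. Purkinje markers lie right of 0 with a median of 1.34 and granule neuron markers left of -1, while the vesicle and SNARE genes, from -2.26 to 1.77, overlap both.

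Across scalings, 53 of the 69 genes kept their sign and 16 did not, and each of these 16 lay within 0.5 of 0 as deposited. Snap25, Syp, Unc13a and Unc13b were among them, so no direction is given for them. Of the 17 genes called as deposited, Syt1, Syn3 and Syt11 fell just short of 2-fold with the array medians subtracted, at -0.97, -0.96 and -0.94, and were called under the other scalings.

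**Figure D5:**
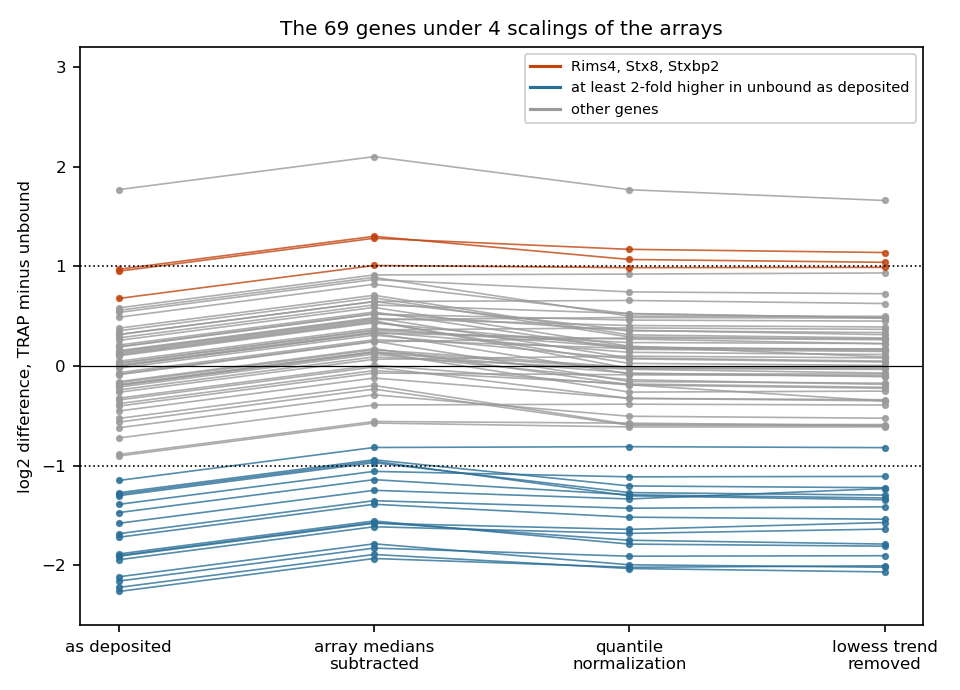
Log2 difference (TRAP minus unbound) of the 69 genes as deposited and under 3 other scalings of the arrays, with 1 line per gene and dotted lines at 2-fold. Subtracting the array medians moves every gene up by 0.33, which brings Rims4, Stx8 and Stxbp2 over the upper line and 4 of the 17 genes called higher in unbound above the lower one.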

How the data were processed

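The submitters' processing notes name Affymetrix Power Tools as the authors' software. The deposited log2 values (22097 probe sets, 2 arrays) come with no stated version, background correction, normalization, summary method or log base, and base 2 was read from their range. The table has no detection calls, and the number of arrays limits the precision.

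Of the probe sets, 20999 name 1 gene in the platform annotation, 91 name several and 1007 are unnamed here. Values of a gene's probe sets were averaged (19503 genes; 66 of the 69 genes described have 1 probe set). All 69 matched RefSeq genes of GRCm38.p6 by Entrez identifier. Calls needed a 2-fold difference and a higher value above 7.08. No test was run, since each fraction has 1 array. Every gene of the families could be named. Of other genes, Pcp2, Rpl10a and listed partners and markers could be named. The members and lists were chosen with earlier results of these data known. Of 62 partners and 62 markers written down, 57 and 58 were measured. Protein sequences were not used here.

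Alternatives were array medians subtracted, quantile normalization, a lowess trend removed (span 0.3), other floors and thresholds, and the brightest probe set per gene. Scripts used Python 3.11.15, pandas 2.3.3 and statsmodels 0.14.6 and were tested on simulated data.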

Additional observations from a re-analysis of the deposited data

How the results depend on the processing

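The count of 0 higher in TRAP was 3 with the array medians subtracted, 2 after quantile normalization, 2 after the lowess trend was removed, 1 with no floor (Cplx4) and 3 at 1.5-fold. It was 0 at 4-fold, with the higher floor, with the floor applied to the mean of the arrays and with the brightest probe set. The count of 17 genes higher in unbound stayed between 13 and 21 under the other scalings, the other floors, the brightest probe set per gene and a 1.5-fold threshold, and was 4 at 4-fold. The median difference of -0.17 turned to 0.16 with the medians subtracted, since the median of the TRAP array is lower. All measured genes moved by the same 0.33, from 0.10 to 0.43, so the families' median stayed below theirs. The median of genes above the floor on at least 1 array lay closer to that of the families. It was -0.13 as deposited and 0.20 with the medians subtracted. The families' median was -0.03 after quantile normalization, -0.07 without the trend and -0.20 to -0.17 in the other settings. No called gene changed direction. No paired analysis was possible because each fraction has 1 array, and for the same reason no replicate could be left out.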
